A study of Mus musculus with 8 samples.

Results

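The microRNAs described here are the mouse miR-466, miR-669 and miR-297 families, taken from a table of small RNA levels in immortalized skin fibroblasts. They were selected by name, as every feature of the microRNA type whose name begins with miR-466, miR-669 or miR-297, whatever its letter or arm. This gave 60 of the 2403 features listed and of the 813 microRNAs among them: 29 of miR-466, 25 of miR-669 and 6 of miR-297. The families were picked on earlier results of the same 8 libraries, in which their levels in one of the groups stood low, so the differences between groups below describe these libraries and are not independent evidence. The file places 54 of the members on chromosome 2 and 6 on other chromosomes.

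The cells came from skin of C57BL/6 mice, either with the mir210lox/lox genotype (titled KO) or wild type (WT), and were immortalized in both genotypes. Each genotype was held for 24 h in hypoxia (1% O2) or normoxia (21% O2), which gives the groups KO hypoxia, KO normoxia, WT hypoxia and WT normoxia, with 2 libraries each, numbered 1 and 2. The labels do not say how many mice or immortalized lines stand behind a genotype, so genotype and line cannot be told apart, and nothing in them says that the libraries of a group were separate cultures. P-values therefore rest on the spread among these 8 libraries alone, and that spread may be technical. The genotype label gives a floxed allele without saying that it was deleted. KO is the word of the sample titles, and the counts of miR-210 below bear on it.

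The miR-466, miR-467, miR-669 and miR-297 genes form a large cluster inside an intron of Sfmbt2, a gene of the Polycomb group that in mouse is imprinted, expressed from the paternal copy and active in the placenta and the early embryo. A microRNA hairpin is cut into a 5p and a 3p arm, and whichever arm is loaded into Argonaute pairs with messenger RNAs mainly through its seed, bases 2 to 8. In this cluster the hairpins are built from alternating CA and TG repeats, so one arm is rich in C and A and the other in T and G, and many members differ from each other by only a few letters.

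The values are the authors' normalized counts, and their totals over the 2403 features lay between 8618630 and 12167438, of which microRNAs took 73.0% to 82.0%. miR-210-3p, the guide arm of the gene named in the genotype, had 10 and 32 in KO hypoxia and 23 and 14 in KO normoxia, against 36738 and 39011 in WT hypoxia and 4786 and 8676 in WT normoxia. Summed microRNAs typical of fibroblasts (9 of 9 in the table, miR-21 among them) stood between 3430051 and 5435679 per library. The corresponding sums were 100 to 290 for epithelial microRNAs, 37 to 84 for haematopoietic, 102 to 191 for endothelial, 397 to 857 for neural, 114 to 275 for muscle and 0 to 5 for melanocytes. Those of pluripotent cells and the early embryo (4 of 8 in the table) summed to 21 to 45. Their part in the results was not tested.

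The sequences shown first are those of the members with the highest levels, with the seed in capitals and letters as in the file (T for U), after removal of 1 base at each end. The file's sequences carry those extra bases, since 522 of 556 microRNAs that could be matched by name to RefSeq (GRCm38.p6), 4 of 4 members among them, were the RefSeq mature sequence with 1 further base on either side.
miR-466b-3p: aTACATACacgcacacataaga
miR-466e-3p: tATACATAcacgcacacataaga
miR-466d-3p: tATACATAcacgcacacatag
miR-466f-3p: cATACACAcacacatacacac
miR-669a-3p: aCATAACAtacacacacacgtat
miR-297a-3p: tATACATAcacacatacccata
miR-669a-5p: aGTTGTGTgtgcatgttcatgtct

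miR-466c-3p and miR-466p-3p have the same letters as miR-466b-3p, and miR-466e-3p holds the same run with 1 further base at its 5′ end. That base moves the seed by 1, and ATACATA, the seed of miR-466e-3p, is also the seed of miR-466d-3p, miR-669d-3p and the 3p arms of miR-297a, miR-297b and miR-297c. The 60 members held 32 distinct seeds, and 13 of these were shared, covering 41 members. After ATACATA with 6 members came GTTGTGT with 4 (the 5p arms of miR-669a, miR-669f, miR-669l and miR-669p), GTGTGCA with 4, and TACATAC and CATAACA with 3 each. CATAACA, the seed of miR-669a-3p, miR-669a-3-3p and miR-669o-3p, was found in the miR-669 family alone, so some seeds crossed family names and others did not.

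Composition split the members by arm. All 29 members named 3p were rich in C and A, and all 26 named 5p were rich in T and G. With the 5 members that name no arm, 31 were CA-rich (59.1% to 90.5% of their bases A or C) and 29 TG-rich (0% to 36.4%).

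A second set shows both arms of hairpins whose arms stood apart in level, and the members on chromosome 13.
miR-669b-3p: cATATACAtacacacaaacatat
miR-669b-5p: aGTTTTGTgtgcatgtgcatgt
miR-669m-3p: aTATACATccacacaaacatat
miR-466i-3p: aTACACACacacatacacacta
miR-466i-5p: tGTGTGTGtgtgtgtgtgtg

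miR-466i-5p is a plain TG repeat, and its letters were found in 61 hairpins of the mouse annotation. The hairpin of miR-669b is printed below with both arms in capitals, to show how the pair of repeats faces each other across a short loop. In GRCm38 it lies at chr2:10467790-10467886 on the plus strand, in an intron of Sfmbt2, and is 97 bases long.
Mir669b: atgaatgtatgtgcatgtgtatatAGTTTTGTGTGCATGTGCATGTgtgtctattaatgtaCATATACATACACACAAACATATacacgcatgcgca

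The GENCODE annotation of GRCm38 lists 64 hairpins named Mir466, Mir669 or Mir297. Of these 57 lie in introns of Sfmbt2 (chr2:10370510-10595253, plus strand), all 57 on the gene's own strand and 0 overlapping an exon. The other 7 lie elsewhere. Mir466i on chromosome 13 is in an intron of Cdk13, a cyclin-dependent kinase gene, on the opposite strand. Mir466q on chromosome 3 is in an intron of the kinase gene Tnik on the same strand, and Mir466k on the same chromosome is in an intron of Gm37240 on the opposite strand. Mir669n is in an intron of the zinc transporter gene Slc30a7 on the opposite strand, and Mir466j, Mir466f-4 and Mir297-1 overlap no other gene.

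The file's own coordinates put the 54 members of chromosome 2 between 10388303 and 10439868, a stretch of 51.57 kb. The sources used here do not name the build of these coordinates. It is not GRCm38, since 0 of the 4 members with a RefSeq entry stood at their GRCm38 position. In the file miR-669b-3p lies at chr2:10389477-10389501, miR-466f-3p at chr2:10393633-10393655 and miR-669a-3p at chr2:10403438-10403462. Farther along come miR-466b-3p at chr2:10415478-10415501, miR-669a-5p at chr2:10422980-10423005, miR-466d-3p at chr2:10433643-10433665 and miR-297a-3p at chr2:10438742-10438765. Away from chromosome 2, miR-466i-3p lies at chr13:17839385-17839408 and miR-466k at chr3:85271317-85271341.

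Levels covered a wide range. Over the 8 libraries 3 members had a mean normalized count of at least 1000, 17 lay between 100 and 1000, 26 between 10 and 100, and 14 under 10. A minimum value of 10, reached in no fewer than 2 libraries, was asked of every feature before testing and left 1540, of which 579 were microRNAs. This kept 46 members, 18 of miR-466, 23 of miR-669 and 5 of miR-297, and of these 43 were on chromosome 2. The 14 members not tested had values from 0 to 10, with means of 1.38 to 7.13. They were 8 members named 5p, 3 named 3p and 3 with no arm, and 4 of them were at 0 in at least 1 library, where a count of 0 allows a share of up to 2.47e-05% to 3.48e-05% of a library (3 counts over its total).

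Many members with the same letters were not separate measurements. Counting identical or nested sequences once left 49 distinct sequences, because 19 members fell into 8 such sets. In 4 of the sets, those with the highest levels, the values stood in about the ratio of the number of hairpins that carry the member's name. miR-466b-3p has 8 such hairpins and miR-466p-3p has 1, and the values of miR-466b-3p were 7.85 to 7.97 times those of miR-466p-3p in every library. miR-466c-3p, with 2 hairpins, was at 1.99 to 2.01 times miR-466e-3p, which has 1. The same held for miR-669a-3p over miR-669o-3p (11 hairpins and 1, ratio 10.9 to 11.1), and for miR-669a-5p over miR-669p-5p (12 and 2, ratio 5.94 to 6.03). miR-297a-3p over miR-297b-3p (2 and 1) had a ratio of 1.99 to 2.04. Not all sets followed it. miR-669d-3p (2 hairpins) was at 0.929 to 1.15 times miR-669d-2-3p (1 hairpin), and miR-669m-5p averaged 62.4 over the 8 libraries where miR-466m-5p, of the same letters, averaged 1.63. Both pairs were looked at after their values were seen. The sources used here do not say how reads that match several hairpins were shared out. In the 4 sets the rank of a member by its table value is thus a rank by hairpin copies.

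**Figure D1:**
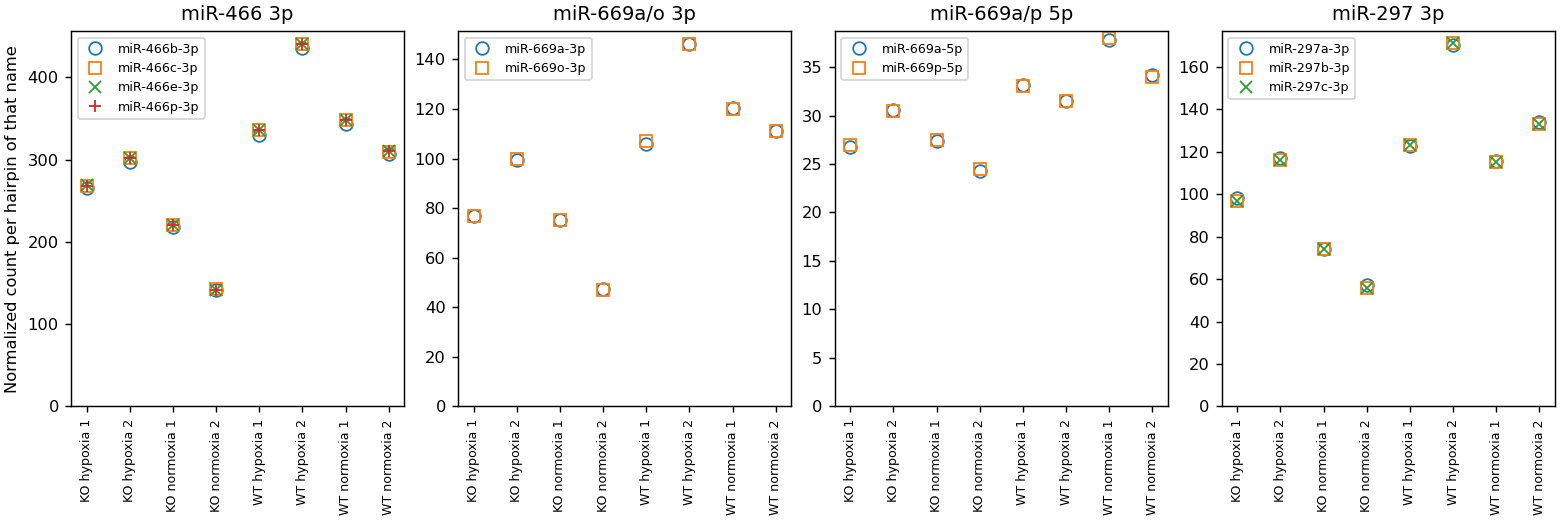
Normalized count divided by the number of hairpins of the member's name (y axis) in each of the 8 libraries (x axis), for 4 sets of members with the same or nested mature sequence. Symbols of one set lie on each other in every library, for example at 142 to 143 in KO normoxia number 2 for miR-466c-3p, miR-466e-3p and miR-466p-3p.

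Per hairpin, miR-466b-3p thus stood at 266 and 298 in KO hypoxia and 218 and 141 in KO normoxia, against 330 and 436 in WT hypoxia and 343 and 307 in WT normoxia. miR-466d-3p, whose letters were found in 1 hairpin, was higher per hairpin than miR-466b-3p in every library, with 1411 and 1623 in KO hypoxia, 1217 and 711 in KO normoxia, 1760 and 2393 in WT hypoxia and 1759 and 1653 in WT normoxia. Each of its 8 values is thus above each of the 8 of miR-466b-3p per hairpin. Between hairpins of near-identical sequence, reads of the arms could be split in counting, so a level of a single member is uncertain.

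Together the 60 members summed to 9129 and 10637 in KO hypoxia and 8084 and 5548 in KO normoxia, against 11738 and 14969 in WT hypoxia and 12078 and 11454 in WT normoxia. As a share of the library total this was 0.0946% (95% exact binomial interval 0.0927% to 0.0966%) and 0.0955% (0.0937% to 0.0973%) in KO hypoxia. In KO normoxia the shares were 0.0938% (0.0918% to 0.0959%) and 0.0537% (0.0523% to 0.0552%). WT hypoxia had 0.118% (0.116% to 0.120%) and 0.123% (0.121% to 0.125%), and WT normoxia had 0.123% (0.121% to 0.125%) and 0.100% (0.0982% to 0.102%). KO normoxia number 2 lay below all the others by far more than counting error, and the KO libraries all lay below the WT libraries. That separation of the genotypes depends on the total used. As a share of microRNA counts, WT normoxia number 2 (11454 of 9248244) lay slightly below 2 KO libraries. These were KO hypoxia number 1 (9129 of 7042974) and KO normoxia number 1 (8084 of 6494075). Intervals cover counting error only and treat normalized values as reads.

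KO normoxia number 2 was the library with the lowest value for 36 of the 46 members tested, and KO normoxia number 1 for 8. WT hypoxia number 2 held the highest value of 29. On the log2(value + 1) scale, the median deviation of the members from their own mean over libraries was −0.08 and 0.09 in KO hypoxia and −0.29 and −0.81 in KO normoxia, against 0.22 and 0.45 in WT hypoxia and 0.25 and 0.20 in WT normoxia. The libraries of KO normoxia were thus far apart, so counts and medians that rest on that group are also given without number 2. Over all microRNAs tested the medians in KO normoxia were −0.22 and −0.09.

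Differences were fitted with limma on log2(value + 1) over all 1540 features, and p-values were adjusted over all of them by Benjamini-Hochberg. The first comparison set KO against WT in normoxia. Nearly all members were lower in KO normoxia, and the CA-rich 3p members by more than the TG-rich 5p members. miR-466b-3p, the most abundant, was at 1740 and 1131 in KO normoxia, against 2743 and 2457 in WT normoxia, a log2 difference of −0.89 (SE 0.30, limma adjusted p = 0.324). miR-466d-3p had 1217 and 711 in KO normoxia, against 1759 and 1653 in WT normoxia (−0.87, SE 0.32, limma adjusted p = 0.324). The groups did not overlap for either, though none of these differences passed the test. As these are bulk samples, fewer cells that hold a microRNA and less of it per cell cannot be told apart.

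miR-669a-3p, the most abundant of its family, had 826 and 522 in KO normoxia, against 1323 and 1224 in WT normoxia (log2 difference −0.95, SE 0.32, limma adjusted p = 0.324). For miR-466f-3p the values were 617 and 397 in KO normoxia, against 891 and 868 in WT normoxia (−0.83, SE 0.31, limma adjusted p = 0.324). miR-297a-3p, the highest of the miR-297 family, was at 148 and 114 in KO normoxia, against 231 and 268 in WT normoxia (−0.93, SE 0.31, limma adjusted p = 0.324). miR-466c-3p had 441 and 285, against 696 and 619, which repeats miR-466b-3p. Members of 3 family names thus stood lower by similar amounts, with each KO library below each WT library.

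The TG-rich members were closer between genotypes. miR-669a-5p, the highest of them, had 328 and 291 in KO normoxia, against 454 and 410 in WT normoxia, a log2 difference of −0.48 (SE 0.26, limma adjusted p = 0.463). miR-669c-5p, named after its values were seen, had 307 and 231 in KO normoxia, against 312 and 370 in WT normoxia (−0.35, SE 0.29). Both were lower in KO without overlap, the second by a narrow gap.

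The member with the largest difference was miR-669b-3p, at 2 and 1 in KO normoxia, against 16 and 13 in WT normoxia (log2 difference −2.65, SE 0.55, limma adjusted p = 0.231). The 5p arm of the same hairpin, miR-669b-5p, named after its values were seen, had 26 and 32 in KO normoxia, against 27 and 31 in WT normoxia (−0.004, SE 0.37). The letters of miR-669b-5p occur in 3 hairpins, Mir669b and both Mir669m hairpins, and those of miR-669b-3p in 1. The values of miR-669b-5p can thus hold reads of the Mir669m hairpins, and those of miR-669b-3p are low counts.

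miR-669m-3p, whose hairpins carry the same 5p letters, was at 18 and 8 in KO normoxia, against 50 and 29 in WT normoxia (log2 difference −1.58, SE 0.50, limma adjusted p = 0.324). miR-669h-5p, a TG-rich member at the far end of the cluster, had 20 and 8 in KO normoxia, against 24 and 39 in WT normoxia (−1.20, SE 0.53, limma adjusted p = 0.357). Neither group pair overlapped, and in both members KO normoxia number 2 was the lowest library.

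Over the members, 44 of 46 were lower in KO normoxia, where 54.4% of all features tested and 406 of the 579 microRNAs were. The groups did not overlap for 38, all lower in KO, against 20.0% of all features lower without overlap, and 202 of the 579 microRNAs. An unadjusted p under 0.05 was reached by 23, all lower, against 4.81% of all features and 67 of the 579 microRNAs. After adjustment 0 members were called by limma, and 0.0649% of all features were, which is 1 feature, miR-210-3p. The median log2 difference was −0.81 over the members, −0.28 over all microRNAs tested and −0.06 over all features tested. The exceptions were miR-466f-5p (20 and 16 in KO normoxia, 9 and 17 in WT normoxia, 0.49, SE 0.47) and miR-297b-5p (0.02, SE 0.53).

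By sequence class, 27 of 27 CA-rich members were lower in KO normoxia, with a median of −0.89, and 17 of 19 TG-rich members, with a median of −0.46. The gap was the same among members with a mean of at least 50, at −0.89 for 19 CA-rich and −0.46 for 11 TG-rich ones. With identical or nested sequences counted once, 20 of 20 CA-rich members were lower (median −0.91) and 16 of 18 TG-rich ones (−0.46). Counts over members in all comparisons hold such repeats, most of them CA-rich. Other microRNAs of the same base composition had medians of −0.33 (90 as rich in A and C) and −0.22 (110 as rich in T and G). No test of the gap between the classes was made. By family the medians were −0.88 for miR-466, −0.64 for miR-669 and −0.93 for miR-297.

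Without KO normoxia number 2, 43 of 46 members were lower in KO normoxia and the median over the members was −0.50, with −0.58 for the CA-rich and −0.39 for the TG-rich members. The median over all microRNAs was then −0.34, and other microRNAs of the same base composition had −0.42 (as rich in A and C) and −0.19 (as rich in T and G). Of the 1532 features then tested 759 were lower in KO normoxia, as were 397 of the 576 microRNAs. With 1 library left in that group, p-values of this fit are not given. By family the medians were −0.54 for miR-466, −0.44 for miR-669 and −0.73 for miR-297. Within number 1 it was −0.50, with 42 of 46 members lower, and within number 2 it was −1.07, with 43 lower. The direction was thus the same in both numbered sets, while the size was smaller, and the classes closer to each other, without KO normoxia number 2.

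**Figure D2:**
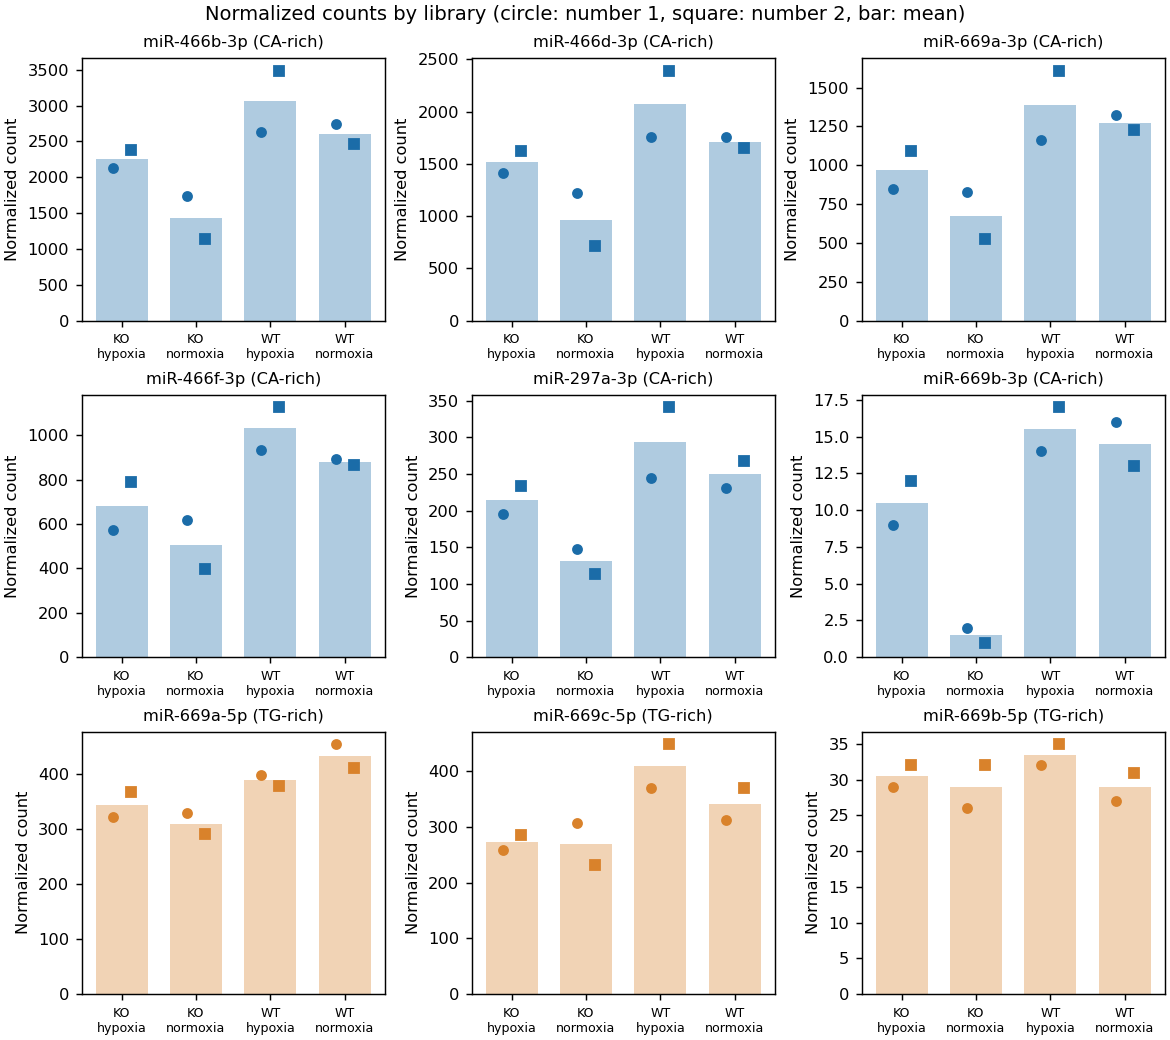
Normalized counts (y axis, from 0) of 9 members in the 4 groups, with a circle for number 1, a square for number 2 and a bar for the mean of the 2 libraries. KO normoxia holds the lowest bar for the CA-rich members (blue), down to 2 and 1 for miR-669b-3p, while the TG-rich members (orange) are closer between groups, with 26 and 32 in KO normoxia for miR-669b-5p against 27 and 31 in WT normoxia.

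The next comparison set KO against WT in hypoxia. Most members were again lower in KO, with a median nearer to 0 than in normoxia. miR-466b-3p had 2125 and 2380 in KO hypoxia, against 2637 and 3488 in WT hypoxia (log2 difference −0.43, SE 0.30). miR-466f-3p had 575 and 788 in KO hypoxia, against 935 and 1126 in WT hypoxia (−0.61, SE 0.31, limma adjusted p = 0.655). Each KO library lay below each WT library for both of these, and neither difference passed the test. miR-669a-3p had 845 and 1092 in KO hypoxia, against 1163 and 1610 in WT hypoxia (−0.51, SE 0.32). miR-297a-3p was at 196 and 234 in KO hypoxia, against 245 and 341 in WT hypoxia (−0.43, SE 0.31), and miR-466c-3p at 537 and 604, against 671 and 882. The TG-rich miR-669a-5p had 321 and 367 in KO hypoxia, against 398 and 378 in WT hypoxia (−0.18, SE 0.26), the narrowest gap of these.

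The largest differences without overlap were those of miR-466h-3p, miR-669h-5p and miR-466m-3p. miR-466h-3p was at 40 and 93 in KO hypoxia, against 115 and 114 in WT hypoxia (log2 difference −0.90, SE 0.45, limma adjusted p = 0.643). miR-669h-5p had 13 and 11 in KO hypoxia, against 22 and 24 in WT hypoxia (−0.89, SE 0.53, limma adjusted p = 0.827). For miR-466m-3p the values were 33 and 41 in KO hypoxia, against 55 and 64 in WT hypoxia (−0.68, SE 0.38, limma adjusted p = 0.767). In miR-466h-3p the KO libraries themselves were far apart, and number 2 lay close to the WT libraries. In normoxia miR-466h-3p had 59 and 34 in KO, against 87 and 116 in WT, and miR-466m-3p had 30 and 26 in KO, against 84 and 50 in WT. miR-669b-3p, far apart in normoxia, had 9 and 12 in KO hypoxia, against 14 and 17 in WT hypoxia (−0.53, SE 0.55, limma adjusted p = 0.967).

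In hypoxia 43 of 46 members were lower in KO, where 54.6% of all features were, and 10 were higher when each library was scaled to its microRNA total. The groups did not overlap for 28 that were lower, against 16.6% of all features (84 of the 579 microRNAs), and for 1 that was higher, against 19.2%. That one was miR-466f-5p, with 24 and 25 in KO hypoxia and 16 and 14 in WT hypoxia (log2 difference 0.68, SE 0.47, limma adjusted p = 0.902), named after its values were seen. With limma 0 members were called, against 0.130% of all features (2), and 0 had an unadjusted p under 0.05, against 9.03% of all features. The median was −0.39 over the members, −0.05 over all microRNAs and −0.04 over all features. CA-rich members had a median of −0.43 (27 of 27 lower) and TG-rich members −0.17 (16 of 19 lower). The TG-rich median was −0.08 without KO hypoxia number 1 (15 of 19 lower), −0.12 with trimmed mean of M-values scaling (13 of 19) and −0.02 when scaled to the microRNA total (11 of 19). Without WT hypoxia number 2 the median over the members was −0.21 and that of the CA-rich ones −0.24.

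**Figure D3:**
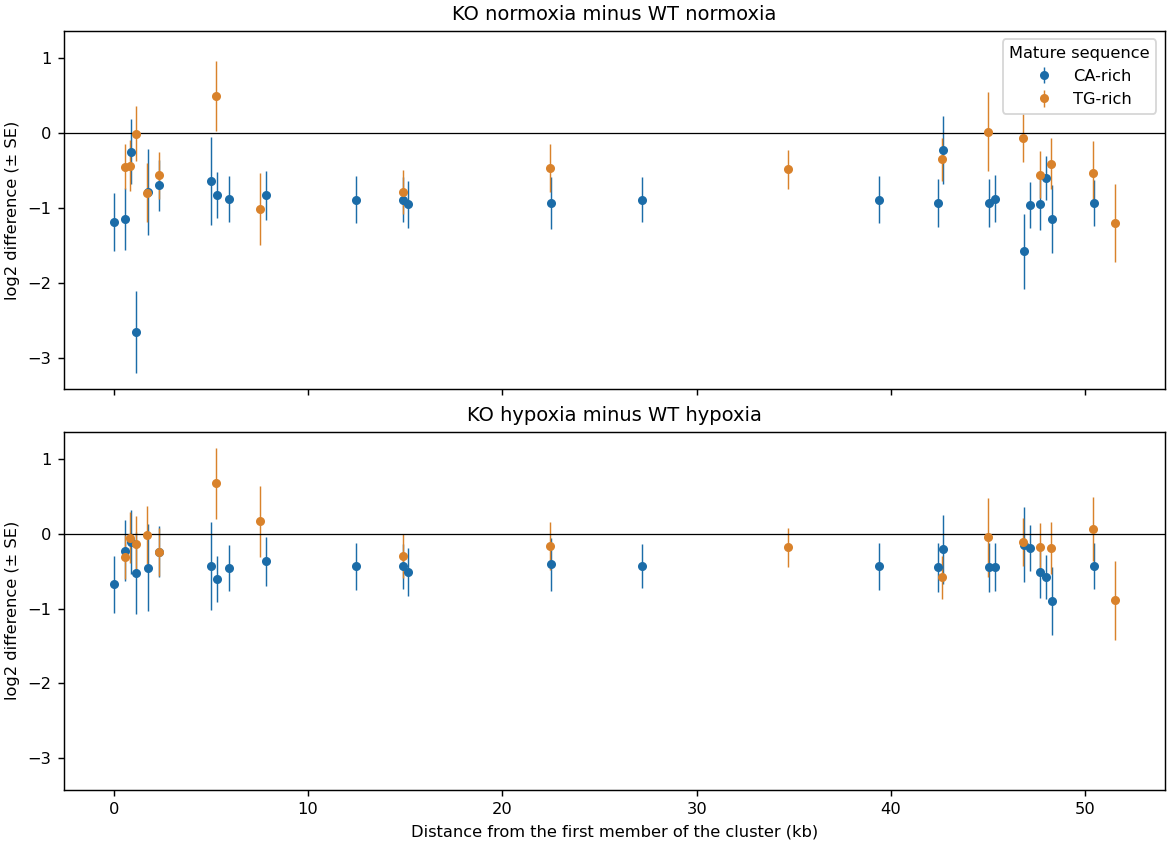
Log2 difference with its SE (y axis) of the 43 members tested on chromosome 2 against their distance from the first member in kb (x axis), for KO minus WT in normoxia (top) and in hypoxia (bottom). In normoxia 41 of the 43 lie below 0 along the whole cluster of 51.57 kb, with CA-rich members (blue) mostly below the TG-rich members (orange) beside them. Each member is drawn at the position the file gives, though the letters of many occur in several hairpins of the cluster.

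Across the cluster, members that the file places at both ends and in the middle were lower in KO normoxia. The file gives each member 1 position, though the letters of many occur in several hairpins. Those of miR-466b-3p, placed in the middle, occur in 15 hairpins of Sfmbt2, and those of miR-669a-3p in 13. The value of such a member cannot be assigned to 1 place in the cluster. On chromosome 2, 41 of 43 members were lower, with a median of −0.83 (40 of 43 and −0.51 without KO normoxia number 2). The neighbours that lie among them in the file, members of the miR-467 family, were also lower in KO normoxia, 9 of 9 tested with a median of −0.96, and 9 of 9 with −0.53 without KO normoxia number 2. These 9 are not all separate measurements. miR-467a-5p and miR-467b-5p stood in a nearly fixed ratio, with 5554 and 555 in KO hypoxia number 1 and 2468 and 247 in KO normoxia number 1. The median in normoxia was −0.96 for the 4 neighbours named 3p and −1.32 for the 5 named 5p. In hypoxia 6 of 9 were lower in KO and 3 higher, with a median of −0.41. There the 3p members had −0.49 (4 of 4 lower) and the 5p members 0.15 (3 of 5 higher). The 3 higher ones were miR-467a-5p, miR-467b-5p and miR-467c-5p, and their groups overlapped. In each, WT hypoxia number 1 lay above both KO hypoxia libraries and number 2 below both. miR-467a-5p had 5554 and 6021 in KO hypoxia, against 6836 and 3705 in WT hypoxia, so the higher values rested on 1 library. miR-467a-5p had 2468 and 2332 in KO normoxia, against 6448 and 6721 in WT normoxia (log2 difference −1.46, SE 0.31, limma adjusted p = 0.238).

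Of the members off chromosome 2, 3 were tested, and all 3 were lower in KO normoxia with a median of −0.55, which was −0.43 without KO normoxia number 2. miR-466i-3p had 57 and 28 in KO normoxia, against 76 and 85 in WT normoxia (−0.99, SE 0.43, limma adjusted p = 0.35). Its other arm, miR-466i-5p, had 46 and 49 in KO normoxia, against 55 and 47 in WT normoxia (−0.10, SE 0.41), and the groups overlapped. miR-466k was at 19 and 16 in KO normoxia, against 24 and 28 in WT normoxia (−0.55, SE 0.44). In hypoxia miR-466i-3p had 40 and 69 in KO, against 82 and 79 in WT, miR-466i-5p 23 and 49, against 45 and 46, and miR-466k 20 and 17, against 18 and 29. The difference of the CA-rich member of the miR-466i name thus lay near the median of the cluster in normoxia, and that of its TG-repeat member, whose letters many other hairpins hold, near 0. miR-466i-3p differs from the nearest stretch of a Sfmbt2 hairpin, in Mir466f-2, at 1 of 22 bases, and miR-466k at 1 of 23, so how far their reads can be told from those of the cluster was not tested. The remaining 3, which were not tested, had values of 5 to 10 (miR-466f), 2 to 9 (miR-466j) and 2 to 9 (miR-466q) over the 8 libraries. The letters of miR-466f occur in 4 hairpins, 3 of them in Sfmbt2, so its reads cannot be told from those of the cluster.

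Hypoxia against normoxia was compared within each genotype. In KO cells the members were mostly higher in hypoxia. miR-466b-3p had 2125 and 2380 in KO hypoxia, against 1740 and 1131 in KO normoxia (log2 difference 0.68, SE 0.30, limma adjusted p = 0.804), without overlap. miR-669b-3p, the member with the largest difference here too, had 9 and 12 in KO hypoxia, against 2 and 1 in KO normoxia (2.22, SE 0.55, limma adjusted p = 0.804). miR-466b-5p, the minor arm of the miR-466b hairpins, was at 37 and 26 in KO hypoxia, against 18 and 8 in KO normoxia (1.29, SE 0.48, limma adjusted p = 0.804). Unlike most TG-rich members it stood far apart between these groups, at low counts. In WT cells it was at 27 and 28 in hypoxia and 23 and 28 in normoxia. miR-669m-3p had 32 and 22 in KO hypoxia, against 18 and 8 in KO normoxia (1.07, SE 0.50, limma adjusted p = 0.804).

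In all, 44 of 46 members were higher in KO hypoxia, where 52.4% of all features and 437 of the 579 microRNAs were. When each library was scaled to its microRNA total, 36 of 46 members were higher. The groups did not overlap for 29 higher members, against 15.8% of all features (180 of the 579 microRNAs), and for 0 lower ones, against 13.1%. An unadjusted p under 0.05 was reached by 6 members, all higher, against 2.47% of all features (29 of the 579 microRNAs). After adjustment 0 members passed limma's test, against 0.00% of all features. The median was 0.53 over the members, 0.25 over all microRNAs and 0.02 over all features. It was 0.68 for the CA-rich members (27 of 27 higher) and 0.15 for the TG-rich ones (17 of 19). Other microRNAs as rich in A and C had a median of 0.31 (75 of 90 higher). Those as rich in T and G had 0.24 (82 of 110 higher), above the TG-rich members. This comparison shares the KO normoxia libraries with that of the genotypes in normoxia, so the values of a member in both are not separate evidence. Without KO normoxia number 2 the median was 0.28, with 0.31 for the CA-rich and 0.16 for the TG-rich members. All microRNAs then had a median of 0.27 (432 of 576 higher), close to that of the members. Other microRNAs of the same base composition had 0.31 (as rich in A and C) and 0.24 (as rich in T and G). The median over the members was 0.82 without KO normoxia number 1 and 0.35 without KO hypoxia number 2. Within numbers 1 and 2 it was 0.16 and 0.92.

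In WT cells hypoxia and normoxia were close. miR-466b-3p had 2637 and 3488 in WT hypoxia, against 2743 and 2457 in WT normoxia (log2 difference 0.22, SE 0.30), with overlap. The largest differences without overlap were small in counts. miR-669d-2-3p had 17 and 23 in WT hypoxia, against 12 and 13 in WT normoxia (0.62, SE 0.59, limma adjusted p = 1), and miR-669d-3p, nested in the same letters, had 18 and 24, against 12 and 15. In KO cells miR-669d-2-3p had 16 and 13 in hypoxia, against 14 and 4 in normoxia, and miR-669d-3p 16 and 14, against 13 and 4. miR-466g, a CA-rich member with no arm in its name, was at 300 and 340 in WT hypoxia, against 248 and 283 in WT normoxia (0.27, SE 0.29, limma adjusted p = 1). In KO cells it had 186 and 245 in hypoxia, against 199 and 153 in normoxia, with overlap. miR-669m-3p was at 30 and 29 in WT hypoxia, against 50 and 29 in WT normoxia, lower on average but with a value of 29 on both sides.

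Higher values in WT hypoxia were found for 32 of 46 members, where 52.1% of all features were higher. The groups did not overlap for 8 higher members, against 14.4% of all features, and for 4 lower members, against 11.4%. Both shares are near those of the whole table. With limma 0 members passed, against 0.00% of all features, and 0 had an unadjusted p under 0.05, against 1.30%. The median was 0.11 over the members (0.19 for the CA-rich, −0.002 for the TG-rich), against 0.02 over all features. Without WT hypoxia number 2 it was −0.004 and without WT hypoxia number 1 it was 0.23, so even its sign rested on 1 library.

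**Figure D4:**
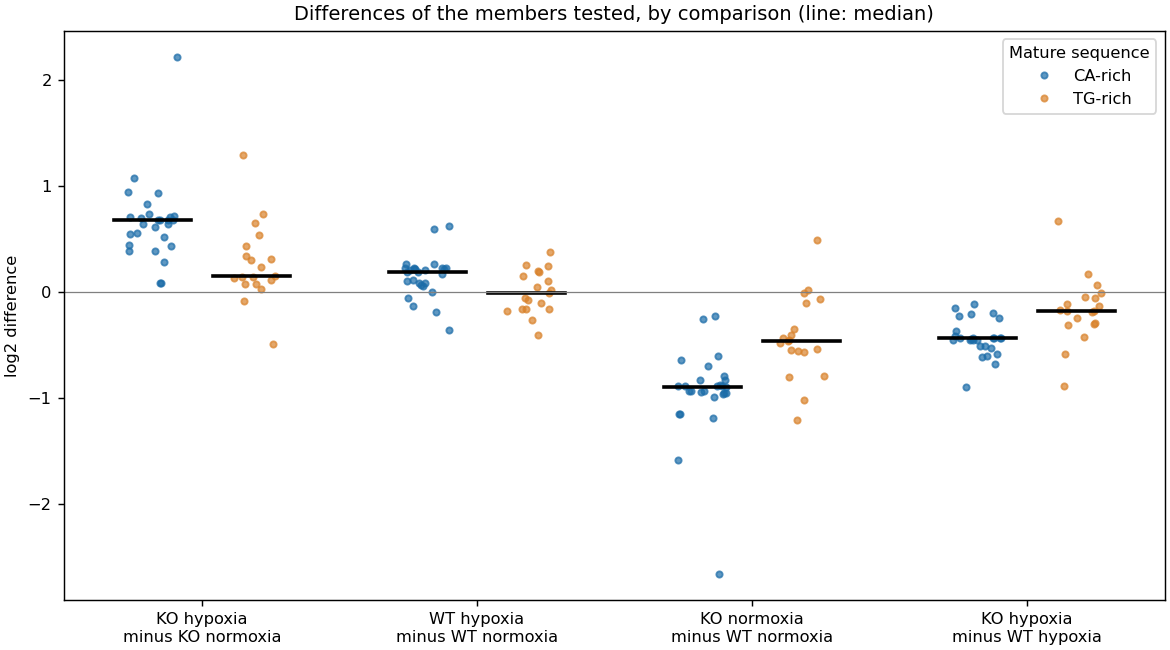
Log2 difference (y axis) of each of the 27 CA-rich (blue) and 19 TG-rich (orange) members tested in the 4 comparisons (x axis), with a black line at each median. CA-rich medians lie farther from 0 than TG-rich medians in each comparison, at −0.89 and −0.46 for KO minus WT in normoxia.

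The test of the difference between the hypoxia changes, KO change minus WT change, had 0 members past the adjusted threshold with limma, against 0.00% of all features. An unadjusted p under 0.05 was reached by 1 member, miR-669b-3p (2.13, SE 0.78, limma adjusted p = 1), against 2.40% of all features. The value was above 0 for 41 of 46 members, where 52.2% of all features were, with a median of 0.41. Of the 579 microRNAs tested 421 were above 0, with a median of 0.25. Without KO normoxia number 2, 36 of 46 members were above 0 with a median of 0.14, and the CA-rich and TG-rich members had 0.14 and 0.16, against 0.24 over all microRNAs. It was 0.67 without KO normoxia number 1 and 0.25 without WT hypoxia number 1. A change with oxygen that differs between genotypes was thus not shown for any member.

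Averaged over both oxygen levels, 45 of 46 members were lower in KO, where 56.8% of all features were, with a median of −0.58. Of the 579 microRNAs 385 were lower, 67 of them with an unadjusted limma p under 0.05, and the median was −0.175. All 4 KO libraries lay below all 4 WT libraries for 20 members, against 3.51% of all features. Of the members 25 had an unadjusted p under 0.05, all lower, against 5.45% of all features, and 0 passed limma's adjusted test, against 0.130% of all features (2). miR-669b-3p came nearest (−1.59, SE 0.39, limma adjusted p = 0.127), and miR-669a-3p had −0.73 (SE 0.23, limma adjusted p = 0.146). Without KO normoxia number 2, 44 of 46 members were lower with a median of −0.46, against −0.19 over all microRNAs. In that fit 826 of 1532 features were lower, and 383 of 576 microRNAs.

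The ratio of a 3p to a 5p member within a library does not depend on that library's scaling, apart from the 1 added to each value. Both members were tested for 17 names, and the 3p member was above the 5p member in WT normoxia for 9 of them. The members of a name need not stand for the same hairpins. The letters of the 5p and the 3p member occur in 61 and 1 hairpins for miR-466i, 10 and 2 for miR-669m, 15 and 2 for miR-669p, 3 and 1 for miR-669b, and 1 and 13 for miR-669o. The log2 ratio of 3p to 5p was lower in KO normoxia than in WT normoxia for 13 of 17, with a median difference of −0.47 and no overlap for 10. Of 161 other microRNA names with both arms tested, 86 had a lower ratio in KO normoxia, with a median difference of −0.07, and 37 (23.0%) were lower without overlap. For miR-669a the log2 ratio was 1.33 and 0.84 in KO normoxia, against 1.54 and 1.58 in WT normoxia. For miR-669b it was −3.17 and −4.04 in KO normoxia, against −0.72 and −1.19 in WT normoxia. miR-466f had 4.88 and 4.55 in KO normoxia, against 6.48 and 5.59 in WT normoxia.

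The ratio was not lower in KO normoxia for miR-466b (0.12 higher), miR-669c (0.13), miR-669d (0.01) and miR-669e (0.19). In hypoxia 14 of 17 ratios were lower in KO than in WT, with a median difference of −0.33, as were 82 of the 161 other names, with a median of −0.004. Between hypoxia and normoxia 15 of 17 ratios were higher in KO hypoxia (median 0.33), and 10 of 17 were higher in WT hypoxia (median 0.11). The other names were not compared between oxygen levels, so whether these counts differ from theirs is not known. Without KO normoxia number 2, the ratio was lower in KO normoxia than in WT normoxia for 15 of 17 with a median difference of −0.23 (88 of the 161 other names, median −0.02), and higher in KO hypoxia than in KO normoxia for 10 of 17 with a median of 0.12. Names that share mature sequences, such as miR-669a, miR-669o and miR-669p, are not separate measurements here, and no test over the 17 was made.

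**Figure D5:**
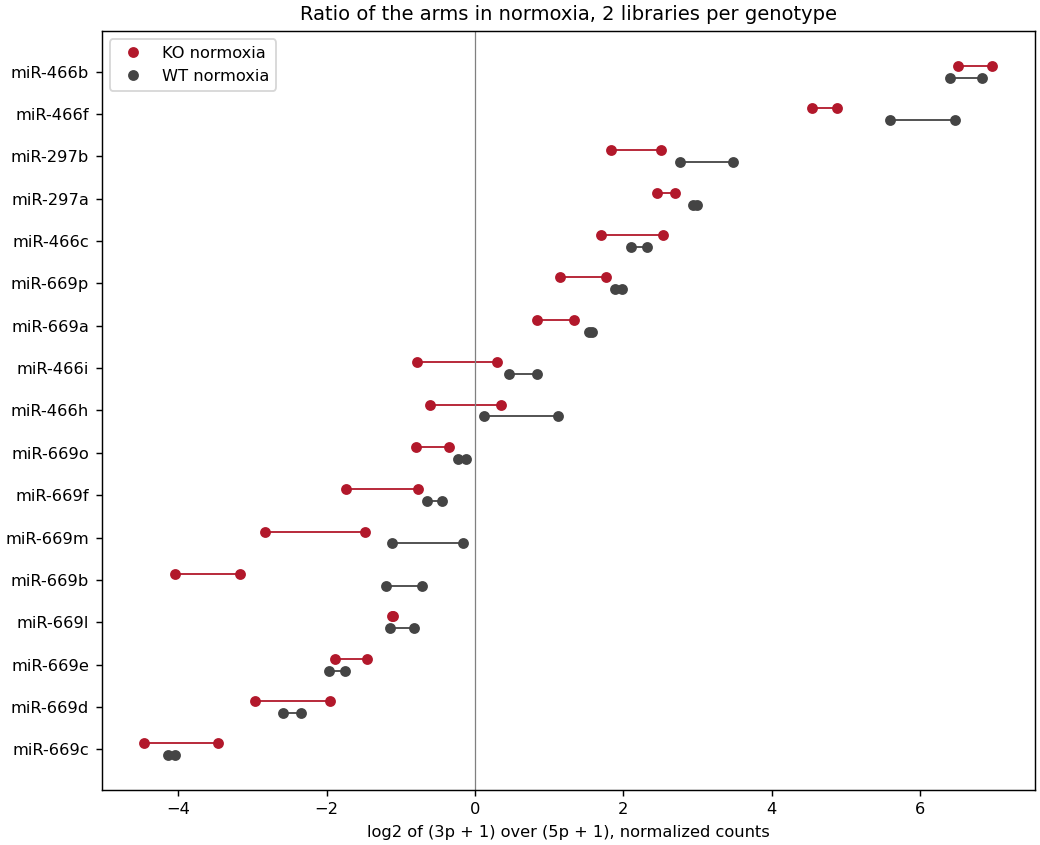
Log2 ratio of the 3p to the 5p member, from normalized counts with 1 added (x axis), for 17 names (y axis) in the 2 libraries of KO normoxia (red) and of WT normoxia (grey), joined by a line. The red points lie left of the grey points without overlap for 10 names, farthest for miR-669b, where 23.0% of 161 other microRNA names were lower without overlap.

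Summed over members, the CA-rich values were 5.03 and 5.49 times the TG-rich values in KO hypoxia and 4.58 and 3.43 times in KO normoxia, against 5.56 and 6.70 times in WT hypoxia and 5.57 and 5.12 times in WT normoxia. The ratio was lowest in KO normoxia number 2 and highest in WT hypoxia number 2, and both KO normoxia libraries lay below all others. KO normoxia number 2 also had the lowest summed microRNAs typical of neural cells (397, against 631 to 857 in the others), haematopoietic cells (37, against 39 to 84), endothelium (102, against 117 to 191) and muscle (114, against 116 to 275). Its epithelial sum of 236, its early embryo sum of 27 and its fibroblast sum of 4987951 lay inside the ranges of the others. The part of these in the result was not tested.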

How the data were processed

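The table gives, per the labels, normalized counts of small RNA features in 8 libraries. The authors deposited whole numbers that differ in total, taken here as a score, since they are a normalized unit rounded by the authors. Per the labels' protocols, a miRNeasy kit gave the total RNA, and an NEB small RNA set for SOLiD the libraries. Trimming, alignment, genome build, the sharing of reads between matching features and the normalization are steps not given in the sources used here.

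Features that reached 10 in 2 or more libraries were fitted with limma 3.58.1 (R 4.3.3, intensity trend) on log2(value + 1), a scale that understates changes of low features, with 4 group means, 4 residual and 5.64 prior degrees of freedom. All groups share one estimate of the spread. P-values were adjusted over all 1540 features with a threshold of 0.05. The fit was tested on simulated data with independent noise in each feature, and that test is not used as support for any result here. Trimmed mean of M-values (TMM) factors were used only as an alternative scaling. Sequences were read from the deposited table and compared with GENCODE hairpins of GRCm38, counting exact matches.

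Named with values were the 6 highest members, the 3 largest differences without overlap in each pairwise comparison, members off chromosome 2 that were tested, and the highest of each family. miR-669b-5p, miR-669c-5p, miR-466f-5p, miR-297b-5p, miR-466c-5p and the neighbour miR-467a-5p were named after their values were seen. The members and lists were chosen with earlier results of these data known. Alternatives were 19 other settings, among them pseudocounts of 8 and 0.5, other filters and scalings, the replicate number as a block and leaving out each library.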

Additional observations from a re-analysis of the deposited data

Results flagged for a closer look

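miR-466c-5p, a TG-rich member of the chromosome 2 cluster, moved in opposite directions with oxygen in the genotypes. It had 102 and 89 in KO hypoxia against 75 and 87 in KO normoxia, and 124 and 110 in WT hypoxia against 138 and 143 in WT normoxia. Each library of KO hypoxia lay above each of KO normoxia, and each of WT hypoxia below each of WT normoxia, which is why it is listed here. The KO change minus the WT change was 0.50 in log2 units (standard error 0.41, limma adjusted p = 1), so the difference between the changes did not pass the test.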

How the results depend on the processing

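Of the medians and counts of called members, 106 medians and 112 counts stayed within the limits set for a change (0.21 on the log2 scale, the spread between replicates, or 1.5 times a count). Another 7 medians moved and 1 reversed, and 2 counts moved from 0, where the others stayed at 0. Many medians could not change. Leaving out a library outside a comparison, dropping the trend or adding the block leaves the group means compared as they were. Leaving out 1 library at a time, the median over members ran from 0.28 (without KO normoxia number 2) to 0.82 (without KO normoxia number 1) for KO hypoxia minus KO normoxia, main value 0.53. For KO normoxia minus WT normoxia, main value −0.81, it ran from −1.09 (without KO normoxia number 1) to −0.50 (without KO normoxia number 2). For the difference between the oxygen changes, main value 0.41, it ran from 0.14 (without KO normoxia number 2) to 0.67 (without KO normoxia number 1). For KO hypoxia minus WT hypoxia, main value −0.39, it ran from −0.57 to −0.21, and for WT hypoxia minus WT normoxia, main value 0.11, from −0.004 to 0.23, with the reversal without WT hypoxia number 2. Scaling to the microRNA total of each library moved the median of all features to 0.17 in KO normoxia minus WT normoxia and that of the members to −0.58, with 6 of 46 higher. In KO hypoxia minus WT hypoxia this scaling put all features at 0.11 and left 10 of 46 members higher, with TG-rich members at a median of −0.02. Without the intensity trend 1 member was called in KO normoxia minus WT normoxia, miR-669b-3p (limma adjusted p = 0.0313). With the replicate block, 0 members were called in the pairwise comparisons. The block cannot change a median, since each group holds both numbers. Averaged over oxygen levels the block called 1 member, miR-669b-3p (limma adjusted p = 0.0451), and 91 features in all. The numbers are not stated to pair libraries. Differences of number 2 minus number 1 correlated between groups with r of 0.15 to 0.55 over all features and of −0.19 to 0.15 over the members. The cause of these changes was not tested. With 2 libraries a group, the low counts of members such as miR-669b-3p limit what can be said of them.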
